A study of Homo sapiens with 8 samples.

Results

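Ribosome profiling (Ribo-Seq), the sequencing of RNA fragments left under ribosomes after nuclease digestion, was performed on Caco-2, an established line from a human colon cancer whose cells come to resemble enterocytes of the small intestine once confluent. The subject is the small open reading frames (smORFs) whose deposited gene names hold the symbol of a small nucleolar or nuclear RNA, which were 293 of the 24199 smORFs counted. A smORF was taken when any of its gene symbols began with SNORA, SNORD, SCARNA or RNU followed by a digit. The rule itself used no counts, although the members were chosen with earlier results of these data known. The 8 libraries formed 4 groups of 2: undifferentiated cells, differentiated cells with no further treatment (the differentiated control), differentiated cells given micelles made of taurocholate without lipid, and differentiated cells given lipid micelles with BSA, oleic acid and cholesterol. Caco-2 is a single cancer line, and nothing in the labels says whether the 2 libraries of a group came from separate cultures, so the p-values measure only the spread between these libraries.

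Small nucleolar RNAs guide chemical modification of other RNAs. Box C/D RNAs (SNORD) pair with their targets for ribose methylation by fibrillarin, box H/ACA RNAs (SNORA) direct pseudouridylation by dyskerin, and small Cajal body RNAs (SCARNA) do the same for the spliceosomal RNAs. Most are cut out of the introns of host genes, many of which are named SNHG for small nucleolar RNA host gene. The small nuclear RNAs (RNU) include U1, U2, U4 and U5 of the major spliceosome and U12 of the minor one, and the genome holds many pseudogene copies of each, marked by a P at the end of the symbol. None of these RNAs is known as a messenger RNA, and the counts do not tell a ribosome footprint from another fragment of the same RNA.

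The symbols put smORFs of very different position together. Of the 293, 78 shared at least 1 base with a small RNA exon on the same strand (55 lay wholly inside it and 23 partly), 201 were spliced smORFs with the small RNA in one of their own introns, and 14 belonged to the same host gene with the small RNA outside their span. By class, 124 were C/D (35 with exon overlap), 76 H/ACA (14), 12 scaRNA (4) and 79 snRNA (25), and 2 carried symbols of more than 1 class with no exon overlap. The 78 with exon overlap covered 50 small RNAs, so several share a small RNA and its reads: 7 smORFs lay over SNORD49B and 10 over the U5 genes. In GENCODE release 44, 14 of the 50 small RNAs lay in an intron of the host gene in every annotated transcript, EIF4G1 for SNORD66, CNOT1 for SNORA50A, EIF3A for SNORA19, CWF19L1 for SNORA12, POR for SNORA14A, KHDC4 for SCARNA4 and KPNA4 for SCARNA7 among them. For 22, SNORD35A (RPL13A), SNORD49B (SNHG29), SNORD50B (SNHG5), SNORD118 (TMEM107), SNORA21 (RPL23) and SNORA8 (TAF1D) among them, an exon of at least 1 host transcript overlapped the small RNA, so its reads and those of that isoform cannot be told apart. No gene named with the smORF spanned the other 14, among them RNU5F-1, RNU5A-8P, RNU5E-4P, RNU4-1, RNU4-2 and SCARNA2.

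The frames over small RNA exons were short. Their median length was 39 nt against 93 nt over all smORFs and 111 nt for the 215 members with no exon overlap, and 25 of the 78 were under 30 nt. An ATG start was present in 39.7% of them and in 43.4% of all smORFs. The median RibORF score, which combines read coverage and codon periodicity, was 0.833 for the 78 and 0.876 for all smORFs. Of the 78, 2 had a mean PhyloCSF above 0, a conservation score that is positive where sequence changes resemble those of coding regions, as had 1.75% of all smORFs.

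The sequences below carry a part of the changes described after them. Each is the small RNA gene 5′ to 3′ in hg38, with the reading frame, without its stop codon, in capitals. Listed first are the U4 genes whose frames rose with differentiation.
RNU4-1, chr12:120293097-120293237, minus strand: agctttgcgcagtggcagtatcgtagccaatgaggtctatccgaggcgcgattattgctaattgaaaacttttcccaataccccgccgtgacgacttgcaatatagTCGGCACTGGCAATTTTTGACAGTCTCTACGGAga
RNU4-2, chr12:120291763-120291903, minus strand: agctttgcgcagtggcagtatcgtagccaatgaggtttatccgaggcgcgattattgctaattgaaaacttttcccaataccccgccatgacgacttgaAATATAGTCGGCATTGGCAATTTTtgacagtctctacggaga

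Box C/D RNAs whose frames rose with differentiation are given next, and after them the box H/ACA RNAs that led the micelle comparisons.
SNORD35A, chr19:49491175-49491260, plus strand: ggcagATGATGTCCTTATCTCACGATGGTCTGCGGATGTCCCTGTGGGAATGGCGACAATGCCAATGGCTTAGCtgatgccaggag
SNORD66, chr3:184325696-184325771, plus strand: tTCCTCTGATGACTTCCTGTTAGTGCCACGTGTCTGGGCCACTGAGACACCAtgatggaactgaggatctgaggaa
SNORD49B, chr17:16439505-16439576, plus strand: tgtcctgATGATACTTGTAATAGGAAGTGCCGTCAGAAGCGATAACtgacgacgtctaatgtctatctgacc
SNORD50B, chr6:85677589-85677658, minus strand: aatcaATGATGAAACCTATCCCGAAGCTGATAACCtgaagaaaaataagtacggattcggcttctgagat
SNORA19, chr10:119060011-119060138, minus strand: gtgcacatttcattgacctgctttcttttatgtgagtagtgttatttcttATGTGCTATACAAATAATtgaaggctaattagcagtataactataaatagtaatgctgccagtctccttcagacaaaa
SNORA12, chr10:100237156-100237302, minus strand: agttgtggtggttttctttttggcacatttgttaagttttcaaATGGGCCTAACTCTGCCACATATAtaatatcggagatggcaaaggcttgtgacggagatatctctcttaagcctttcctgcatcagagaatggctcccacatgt
SNORA14A, chr7:75943782-75943916, plus strand: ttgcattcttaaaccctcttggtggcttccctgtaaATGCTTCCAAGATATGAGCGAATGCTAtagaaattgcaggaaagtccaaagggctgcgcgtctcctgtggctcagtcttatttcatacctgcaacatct

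Of the 16 C/D frames wholly inside a small RNA, 6 held the C box letters TGATGA on their own strand (37.5%), against 0.971% of all 11222 smORFs of 18 to 84 nt, the range of those 16. For the D box letters CTGA it was 7 (43.8%) against 19.9%. These RNAs are named for the 2 boxes, so a higher share follows from the choice of frames and is no test. Short repeated RNAs can share reads between copies, so windows of 25 nt over the part of each frame inside the small RNA were matched to the genome. The windows could run past the ends of that part, and bases of a frame outside the small RNA were otherwise not checked. All windows occurred once for 50 of the 78 frames, SNORA19, SNORA12, SNORA14A, SNORD35A, SNORD66, SNORD50B and the frame with the most counts over RNU5F-1 among them. For 2 other frames over RNU5F-1 the share of windows found once was 66.7% and 75.6%. It was 50.0% over RNU5A-8P, 84.4% over RNU5E-4P (49.0% for its other frame), 33.3% over RNU4-1, 20.8% over RNU4-2 and 65.7% over RNU4-46P. Over SNORD49B it was 42.1% for IEC_11918 and 71.8% for IEC_03505. Other named frames had 69.0% (SNORA8), 72.2% (SNORD118), 74.1% (RNU12), 81.0% (SCARNA16), 92.6% (SNORD26) and 93.3% (RNU1-34P). Reads of all these frames may thus come from other places in the genome.

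Library totals ran from 506382 to 884711 counts over smORFs. Markers placed the differentiated cells where their label does: of 25 tested smORFs in enterocyte genes 20 were higher and 1 lower in the differentiated control than in undifferentiated cells, and of 24 in proliferation genes 23 were lower. Summed over each list, enterocyte smORFs ran, in CPM (counts per 1000000 of the library size after TMM scaling), from 1682 to 2115 CPM in undifferentiated and from 5079 to 7270 CPM in differentiated libraries, and proliferation smORFs from 7985 to 8321 and from 526 to 692 CPM. The fibroblast list stayed at or under 18.9 CPM and the leukocyte list at or under 11.7 CPM, and none of their smORFs passed the filter on low counts. 

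The first question was how the counts over each class differed between the groups. In undifferentiated cells the 25 snRNA smORFs with exon overlap took 2.61% and 4.12% of all smORF counts in the pair of libraries, against 0.742% and 0.754% in the differentiated control. C/D smORFs with exon overlap went the other way, with 0.789% and 0.851% in undifferentiated and 2.1% and 2.65% in control libraries. Overlapping frames count the same reads, so a share can hold a read more than once, and fewer cells of a type and less RNA per cell cannot be told apart in these bulk libraries. For both classes the libraries of these groups did not overlap. With any exon overlap counted, the snRNA and C/D frames exchanged places as the largest class. Among frames wholly inside a small RNA they did not, and snRNA stayed above C/D. There the mean share of C/D frames was 0.123% in undifferentiated and 0.375% in control libraries, and that of snRNA frames 3.32% and 0.624%.

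The shares with micelles differed less. C/D smORFs with exon overlap held 3.02% and 3.12% with micelles without lipid and 1.71% and 1.91% with lipid micelles, the first above and the second below both control libraries. H/ACA smORFs with exon overlap held 0.34% and 0.437% in undifferentiated, 0.18% and 0.461% in control, 0.608% and 1.55% in micelle without lipid and 0.236% and 0.571% in lipid micelle libraries. Replicate 2 was the higher in each of these groups, and only the group with micelles without lipid stood wholly above the control. scaRNA smORFs with exon overlap took at most 0.101% of any library.

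**Figure D1:**
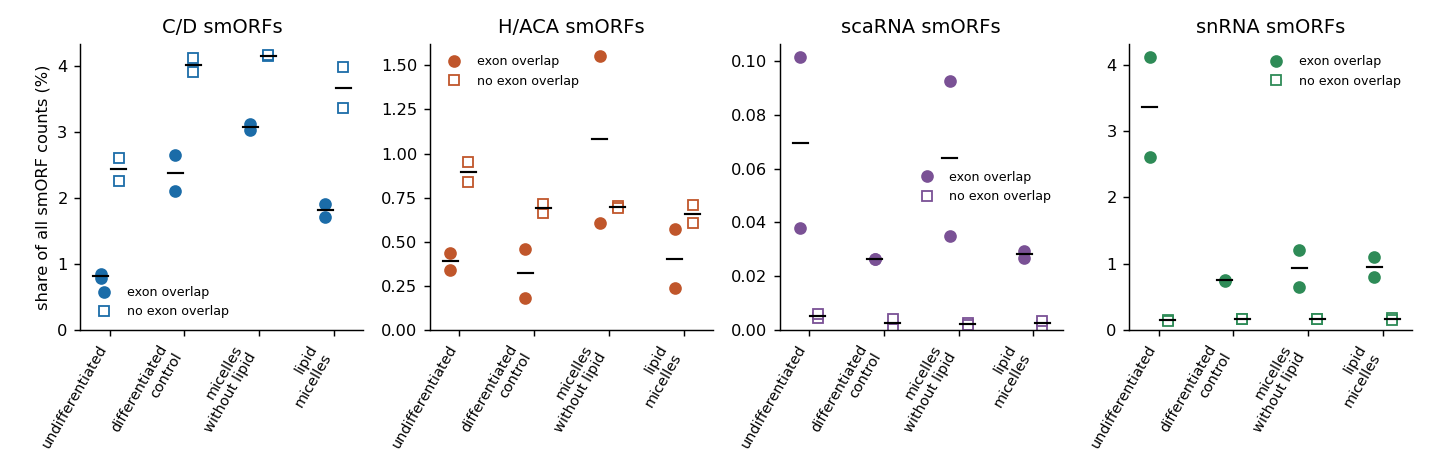
Share of all smORF counts (%) per library by class, for smORFs with exon overlap (filled circles) and without (open squares), 2 libraries per group, bars at the mean. The snRNA frames with exon overlap stood at 2.61% and 4.12% in undifferentiated libraries and at 1.21% or below in all others, and the C/D frames at 0.851% or below in undifferentiated libraries and at 1.71% or above in the rest.

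Differentiated control and undifferentiated cells were compared to ask which of the frames changed with differentiation. A smORF was called when the edgeR quasi-likelihood test gave an adjusted p under 0.05 and a fold change of at least 2 in either direction. Of 15182 smORFs tested, 17.7% were called higher and 15.6% lower. Of the 242 members that passed the filter on low counts, 60 were called higher (24.8%) and 45 lower (18.6%). The 68 tested members with exon overlap held 28 higher (41.2%) and 15 lower (22.1%), and the 174 without held 32 higher (18.4%) and 30 lower (17.2%), so members with no exon overlap stood near the background and those over an exon above it for higher calls. The median log2 fold change was 0.45 with exon overlap, -0.33 without and 0.01 over all smORFs tested.

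With exon overlap, 18 of 31 C/D smORFs were called higher and none lower, with a median log2 fold change of 1.26. Frames over 1 small RNA can share reads, and the 18 covered 10 small RNAs. Of the 13 C/D frames wholly inside a small RNA, 7 were called higher, over 7 small RNAs. Of 12 H/ACA smORFs 5 were higher and 1 lower, with a median of 0.90, and with the replicate number as a block 6 were higher and 3 lower. Of 4 scaRNA smORFs 1 was higher and 2 were lower. Of 21 snRNA smORFs 4 were higher, over 4 small RNAs, and 12 lower, over 6, with a median of -2.09.

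**Figure D2:**
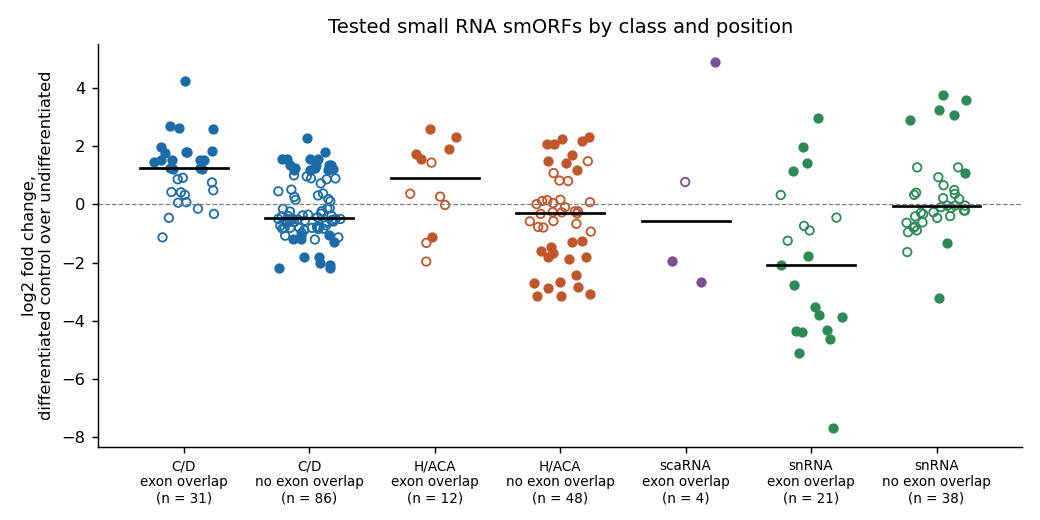
Log2 fold change of each tested smORF, differentiated control over undifferentiated, by class and position; filled points were called, open points not, and bars are medians. C/D frames with exon overlap centre at 1.26 and snRNA frames with exon overlap at -2.09, with U5 frames at the bottom; the 2 smORFs of mixed class are left out.

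The U5 frames fell most. The frame over RNU5F-1 (IEC_16524) had 2031 and 2799 counts in undifferentiated, 42 and 117 in control, 56 and 92 in micelle without lipid and 52 and 101 in lipid micelle libraries. Undifferentiated libraries stood far above the other 6 without overlap, at 4083 ± 1260.3 CPM (SD, n = 2) against 117 ± 49.5 CPM (SD, n = 2) in the control (log2 fold change -5.10 ± 0.36 SE, edgeR adjusted p = 3.33e-08).

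RNU5E-4P (IEC_16537) was the frame of this family with the highest level. It had 4706 and 6127 counts in undifferentiated, 269 and 270 in control, 261 and 513 in micelle without lipid and 290 and 378 in lipid micelle libraries, giving log2 fold change -4.39 ± 0.32 SE, edgeR adjusted p = 3.89e-08. RNU5A-8P (IEC_16531) had 3373 and 4621 counts in undifferentiated, 99 and 264 in control, 169 and 414 in micelle without lipid and 271 and 354 in lipid micelle libraries, giving log2 fold change -4.64 ± 0.37 SE, edgeR adjusted p = 9.18e-08. All 6 differentiated libraries lay below both undifferentiated libraries for each of these frames.

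U5 pairs with the exon ends during splicing. All 9 tested U5 frames were called lower. They lay over 4 genes, RNU5F-1 and the pseudogene copies RNU5A-8P, RNU5E-4P and RNU5E-6P. Taking the frame with the most counts of each, the sum was 20383 ± 5847 CPM (SD, n = 2) in undifferentiated and 918 ± 35 CPM (SD, n = 2) in control cells, 22.2 times higher before differentiation. This sum describes these frames and is not a measure of U5 RNA as a whole.

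Of 2 tested frames over copies of U1, 1 was called lower, and of 4 over copies of U2, 2. RNU1-34P (IEC_16534), in an intron of FILIP1, had 1012 and 2938 counts in undifferentiated, 83 and 245 in control, 429 and 615 in micelle without lipid and 142 and 678 in lipid micelle libraries (log2 fold change -3.81 ± 0.55 SE, edgeR adjusted p = 5.61e-05). RNU2-63P (IEC_18191) had 45 and 45 counts in undifferentiated, 5 and 9 in control, 8 and 16 in micelle without lipid and 11 and 17 in lipid micelle libraries (log2 fold change -2.77 ± 0.41 SE, edgeR adjusted p = 6.64e-05). Neither overlapped between undifferentiated and control libraries, although the undifferentiated libraries of RNU1-34P differed from each other by more than 2-fold.

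Of 4 tested U4 frames 3 were called higher and none lower, and the single U12 frame was called higher. RNU4-2 (IEC_16547), the snRNA frame with the highest mean over all libraries, had 523 and 308 counts in undifferentiated, 1082 and 2517 in control, 969 and 3822 in micelle without lipid and 3553 and 2299 in lipid micelle libraries (log2 fold change 1.98 ± 0.42 SE, edgeR adjusted p = 0.00161). RNU4-1 (IEC_16530) had 135 and 79 counts in undifferentiated, 529 and 1323 in control, 670 and 2154 in micelle without lipid and 2179 and 767 in lipid micelle libraries (log2 fold change 2.96 ± 0.51 SE, edgeR adjusted p = 0.000251). Both undifferentiated libraries were the lowest of the 8 for each of these frames. The U4 frame not called was the other one over RNU4-2 (IEC_16548).

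The frame over the U4 copy RNU4-46P (IEC_00197), with 35 of its 36 bases in the copy, is deposited as a downstream ORF of TMC5. It had 245 and 299 counts in undifferentiated, 959 and 465 in control, 559 and 814 in micelle without lipid and 594 and 1556 in lipid micelle libraries (log2 fold change 1.43 ± 0.41 SE, edgeR adjusted p = 0.0114). RNU12 (IEC_03499), the U12 RNA of the minor spliceosome, had 49 and 82 counts in undifferentiated, 128 and 184 in control, 91 and 225 in micelle without lipid and 144 and 128 in lipid micelle libraries (log2 fold change 1.14 ± 0.34 SE, edgeR adjusted p = 0.0146). Over RNU4-1, RNU4-2 and the copy RNU4-46P the summed level was 1319 ± 141 CPM (SD, n = 2) in undifferentiated and 5312 ± 407 CPM (SD, n = 2) in control cells, 4.03 times higher after differentiation.

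**Figure D3:**
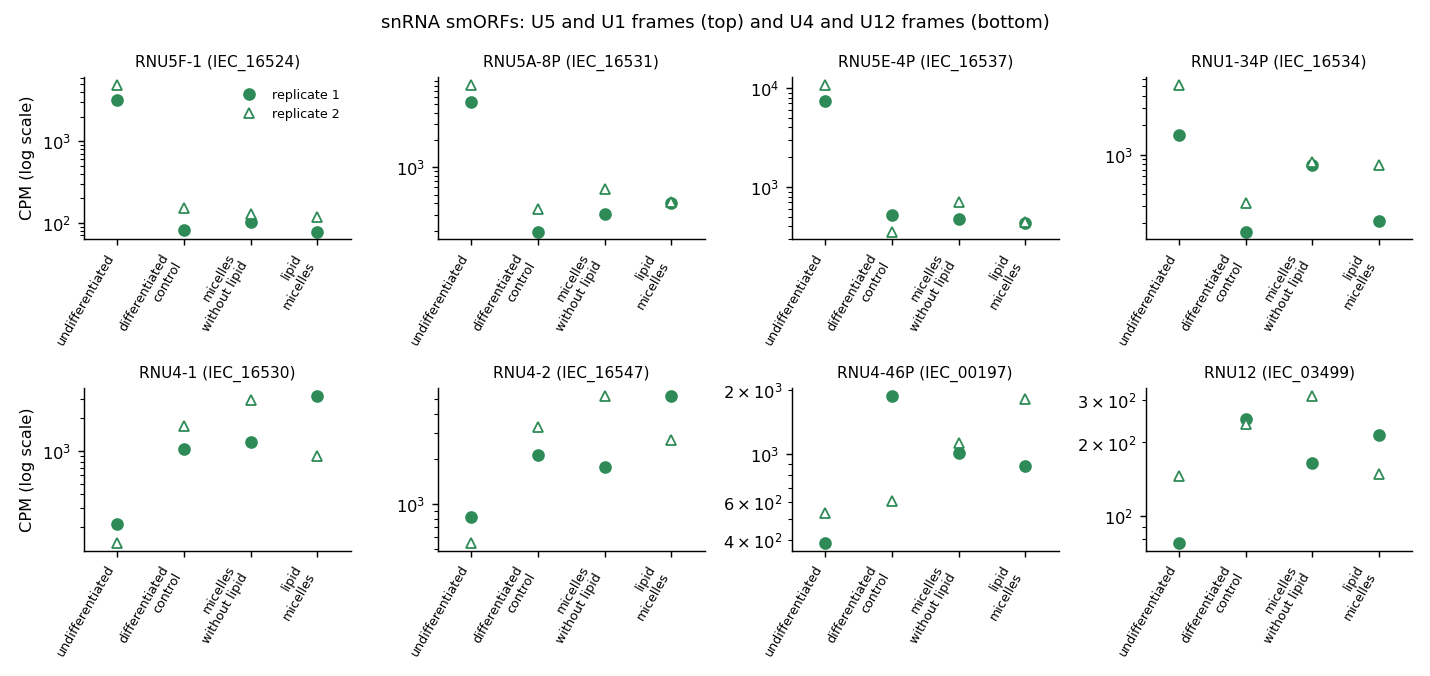
CPM on a log axis in each of the 8 libraries for 3 U5 frames and the U1 copy RNU1-34P (top row) and for U4 and U12 frames (bottom row), replicate 1 as filled circles and replicate 2 as open triangles. RNU5F-1 falls from a mean of 4083 to 117 CPM between undifferentiated and control cells, while RNU4-1 rises from 176 to 1377 CPM.

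Among the C/D frames, SNORD35A (IEC_03502), hosted by the ribosomal protein gene RPL13A, changed most. It had 4 and 9 counts in undifferentiated, 137 and 122 in control, 135 and 46 in micelle without lipid and 33 and 104 in lipid micelle libraries (log2 fold change 4.25 ± 0.65 SE, edgeR adjusted p = 9.1e-05). SNORD66 (IEC_04515), in an intron of EIF4G1, had 13 and 24 counts in undifferentiated, 82 and 69 in control, 97 and 123 in micelle without lipid and 82 and 50 in lipid micelle libraries (log2 fold change 1.98 ± 0.42 SE, edgeR adjusted p = 0.00161). Both undifferentiated libraries were below every differentiated library for each.

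SNORD118 (IEC_16528) is the U8 RNA, needed for processing of the large ribosomal subunit RNAs. Its frame had 12 and 9 counts in undifferentiated, 37 and 41 in control, 50 and 56 in micelle without lipid and 24 and 64 in lipid micelle libraries (log2 fold change 1.82 ± 0.42 SE, edgeR adjusted p = 0.00318). In SNHG1, frames that overlap 3 C/D RNAs rose: those over SNORD22 (IEC_21521, 6 of 87 bases in the small RNA), SNORD26 (IEC_17528) and SNORD25 (IEC_16545), with log2 fold changes of 2.71, 1.78 and 1.51. SNORD26 had 105 and 89 counts in undifferentiated, 296 and 408 in control, 473 and 335 in micelle without lipid and 279 and 255 in lipid micelle libraries (log2 fold change 1.78 ± 0.30 SE, edgeR adjusted p = 0.000225).

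SNORD49B held the C/D frame with the highest level. Its largest smORF (IEC_11918), of which 19 of 129 bases lie in the small RNA, had 786 and 767 counts in undifferentiated, 1594 and 3030 in control, 2352 and 3213 in micelle without lipid and 1820 and 2613 in lipid micelle libraries (log2 fold change 1.44 ± 0.24 SE, edgeR adjusted p = 0.000174). The frame wholly inside SNORD49B (IEC_03505) had a mean of 479 ± 66.9 CPM (SD, n = 2) in undifferentiated and 1698 ± 463 CPM (SD, n = 2) in control cells (log2 fold change 1.83 ± 0.26 SE, edgeR adjusted p = 4.26e-05). Control libraries were above undifferentiated ones for both.

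The H/ACA frames that rose were at lower counts, apart from SNORA50A. SNORA50A (IEC_17529), in CNOT1, had 69 and 134 counts in undifferentiated, 194 and 1036 in control, 837 and 2394 in micelle without lipid and 643 and 465 in lipid micelle libraries (log2 fold change 2.33 ± 0.51 SE, edgeR adjusted p = 0.00188), and its control libraries differed from each other by more than its undifferentiated ones. SNORA8 (IEC_17533), in TAF1D, had 4 and 6 counts in undifferentiated, 17 and 24 in control, 19 and 23 in micelle without lipid and 14 and 11 in lipid micelle libraries (log2 fold change 1.92 ± 0.50 SE, edgeR adjusted p = 0.00657), with no overlap. SNORA33 (IEC_03503), in RPS12, had 3 and 2 counts in undifferentiated and 13 and 20 in control libraries, at least 5.12-fold higher against a floor of 3 counts per library (edgeR adjusted p = 0.0134).

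SNORA16A (IEC_19713), in SNHG12, rose as well (log2 fold change 1.57 ± 0.53 SE, edgeR adjusted p = 0.0266), although 1 control library with 13 counts lay close to the 11 and 12 of the undifferentiated pair. SNORA21 (IEC_16522), of RPL23, was the 1 H/ACA frame with exon overlap called lower, with 29 and 57 counts in undifferentiated, 16 and 27 in control, 73 and 150 in micelle without lipid and 44 and 39 in lipid micelle libraries (log2 fold change -1.12 ± 0.40 SE, edgeR adjusted p = 0.0378). The H/ACA frames with the most counts, SNORA19 (IEC_17534) and SNORA12 (IEC_17557), were not called, with log2 fold changes of -1.97 and -1.33 and edgeR adjusted p of 0.0505 and 0.121. With the replicate number as a block both were called lower, with log2 fold changes of -2.60 and -1.92 and edgeR adjusted p of 2.27e-05 and 0.00201, and SNORA80E (IEC_17535) was called higher (1.42, edgeR adjusted p = 0.0405), although equal numbers did not deviate together between undifferentiated and control libraries.

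The scaRNA frames were few. SCARNA2 (IEC_06734), which has its own promoter, had 0 and 1 counts in undifferentiated and 13 and 26 in control libraries, at least 5.90-fold higher against the floor (edgeR adjusted p = 0.000304). SCARNA4 (IEC_23054), in KHDC4, had 179 and 495 counts in undifferentiated, 35 and 85 in control, 88 and 637 in micelle without lipid and 86 and 147 in lipid micelle libraries (log2 fold change -2.67 ± 0.59 SE, edgeR adjusted p = 0.00213). SCARNA7 (IEC_19602), in KPNA4, had 33 and 49 counts in undifferentiated, 9 and 14 in control, 15 and 6 in micelle without lipid and 6 and 8 in lipid micelle libraries (log2 fold change -1.93 ± 0.46 SE, edgeR adjusted p = 0.00352), and SCARNA16 (IEC_03512), with the second highest mean of the class, was not called (log2 fold change 0.77 ± 0.32 SE, edgeR adjusted p = 0.0684).

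Members with no exon overlap were read from exons of the host transcripts. In SNHG29, a host gene of C/D RNAs, IEC_07459 (named for SNORD65) and IEC_06759 (SNORD49A) rose, with log2 fold changes of 1.82 and 1.55, and IEC_07268 (SNORD49B and SNORD49A) had 1117 ± 151 CPM (SD, n = 2) in undifferentiated and 2675 ± 149.9 CPM (SD, n = 2) in control cells. In ZFAS1, IEC_06729 (SNORD12C) was at 1689 ± 229.6 CPM (SD, n = 2) and 3287 ± 269 CPM (SD, n = 2) and was not called, its log2 fold change of 0.96 being under the threshold. IEC_21420, IEC_21380, IEC_21389 and IEC_21448 of SNHG1 fell, with log2 fold changes of -2.09, -2.02, -1.80 and -1.19, and so did IEC_22681 (SNORD88B) of C19orf48, at -1.06. These are 1 smORF per set of small RNA symbols and not the full count. All 25 tested SNHG1 members with no exon overlap averaged -0.99. Among all tested C/D members with no exon overlap, 17 were called higher and 11 lower.

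H/ACA host transcripts split likewise. IEC_18333 of SNHG7 (SNORA17A) had 72 and 105 counts in undifferentiated, 328 and 484 in control, 548 and 552 in micelle without lipid and 463 and 735 in lipid micelle libraries (log2 fold change 2.09 ± 0.29 SE, edgeR adjusted p = 3.02e-05). IEC_18332 (SNORA17B), also of SNHG7, was at least 4.28-fold higher (edgeR adjusted p = 0.0069). IEC_20679 of RPL32P3 (SNORA7B) and IEC_06466 of SNHG11 (SNORA71E) rose, the second with a log2 fold change of 1.42. IEC_05300, which carries the symbols of SNHG3 and of RCC1, the exchange factor of Ran, had 303 and 199 counts in undifferentiated, 27 and 35 in control, 51 and 28 in micelle without lipid and 23 and 38 in lipid micelle libraries (log2 fold change -3.08 ± 0.35 SE, edgeR adjusted p = 4.09e-06). The smORFs IEC_03997 and IEC_06145 of the same genes fell by 2.88 and 2.45 on the log2 scale. IEC_08872 of SNHG9 fell by 2.67, IEC_03411 and IEC_08176 of SNHG4 and MATR3 by 1.82 and 1.81, and IEC_22277 of SNHG15 by 1.46.

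The other named members with no exon overlap carried snRNA symbols or symbols of both classes. IEC_07340, an upstream ORF of GPR160 with RNU4-38P in an intron, had 13 and 5 counts in undifferentiated, 62 and 82 in control, 47 and 114 in micelle without lipid and 99 and 138 in lipid micelle libraries (log2 fold change 2.91 ± 0.41 SE, edgeR adjusted p = 4.47e-05), and IEC_16901 of GNG12 (RNU7-80P) rose with a log2 fold change of 1.09. IEC_13432 of CRACR2A (RNU6-174P) had a log2 fold change of -1.33, and IEC_22549 of MIR924HG (RNU6-1242P) fell at least 4.80-fold (edgeR adjusted p = 0.00406). IEC_19711 of SNHG12, named for SNORD99, SNORA44 and SNORA61, had 16 and 24 counts in undifferentiated and 1 and 0 in control libraries, at least 6.94-fold lower (edgeR adjusted p = 0.000552). The other smORF of mixed class, IEC_21802 of CCNB1IP1, had a log2 fold change of -0.85 and was not called.

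Some of these calls were lost when 1 library was left out. Of 47 named calls, 30 held in every one of the 15 alternative settings that gave them a value and 17 were lost in at least 1, with no change of sign. Without the first undifferentiated library the calls of SNORD25, SNORA8, SNORA17B and RNU12 were lost, with edgeR adjusted p of 0.0631, 0.07, 0.0681 and 0.168. Without the second, those of SCARNA4 and SCARNA7 were lost, with edgeR adjusted p of 0.0662 and 0.0549. Without the second control library those of SNORA50A and of RNU6-1242P were lost, with edgeR adjusted p of 0.0603 and 0.0904.

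Other calls were lost without any of several libraries. RNU4-46P was lost without the first undifferentiated or the first control library, with log2 fold changes of 1.22 and 0.45. For SNORA33 leaving out either undifferentiated library gave an edgeR adjusted p of 0.0663 or 0.0746. SNORA16A was lost without either undifferentiated library or the second control library, where its log2 fold change was 0.44, and SNORA21 without the second undifferentiated library (-0.43) or either control library. Of the members with no exon overlap, IEC_20679, IEC_21420, IEC_21448, IEC_22681 and IEC_13432 were lost without at least 2 of the 4 libraries compared, with edgeR adjusted p between 0.0526 and 0.297.

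The host genes were compared next, to ask whether a small RNA frame moved with the rest of its gene. For 13 host symbols, smORFs with exon overlap could be set beside other tested smORFs that share no base with a member; RPL17 and RPL17-C18orf32 use the same smORFs, which leaves 12 separate comparisons. Over all 13 symbols the median difference, small RNA frames minus other smORFs, was 0.79 on the log2 scale. The difference was positive in 9 of the 13, and over 1 in size in 6. That median is the value of RPL17, which enters under both of its symbols. Both means had the same sign in 8. For members with no exon overlap the median difference was -0.25 over 31 host symbols, positive in 11. Some of these symbols also use the same members, as RCC1 with SNHG3, ARMH4 with PSMA3-AS1, GABPB1 with GABPB1-IT1 and RPL17 with RPL17-C18orf32.

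EIF4G1, a scaffold of translation initiation, showed the widest gap. Its SNORD66 frame had a log2 fold change of 1.98, and its 10 other tested smORFs averaged -1.75, with 8 called lower and none higher. CNOT1, a scaffold of the deadenylase complex, followed with 2.33 for SNORA50A and -0.41 for 5 others. In TAF1D the values were 1.92 and 0.36, in GTF2A1 0.37 and -0.93, in SNHG12 1.65 and 0.42 and in SNHG29 1.75 and 0.63.

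In the other genes the difference was under 1. In SNHG5 the SNORD50B frame had 1.22 and the 7 others averaged 1.25, with 3 called higher, and in SNHG1 the 8 C/D frames averaged 0.88 beside 0.99 for 1 other. In SEC14L1 the SCARNA16 frame had 0.77 and 3 others 0.29, and in RPL17 the SNORD58B frames 0.40 and the others -0.39. Both means were negative in EIF3A, with -1.97 for SNORA19 and -1.38 for the others, and in KPNA4, with -1.93 for SCARNA7 and -1.39 for 1 other. Members with no exon overlap were not counted among the others. The 25 in SNHG1 averaged -0.99, the 17 in SNHG29 1.38, the 6 in RPL17 -0.20 and the 1 in SNHG5 1.00. The 1 in SNHG12, IEC_19711, was called lower. All host values are descriptions, and no test was made over the hosts.

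**Figure D4:**
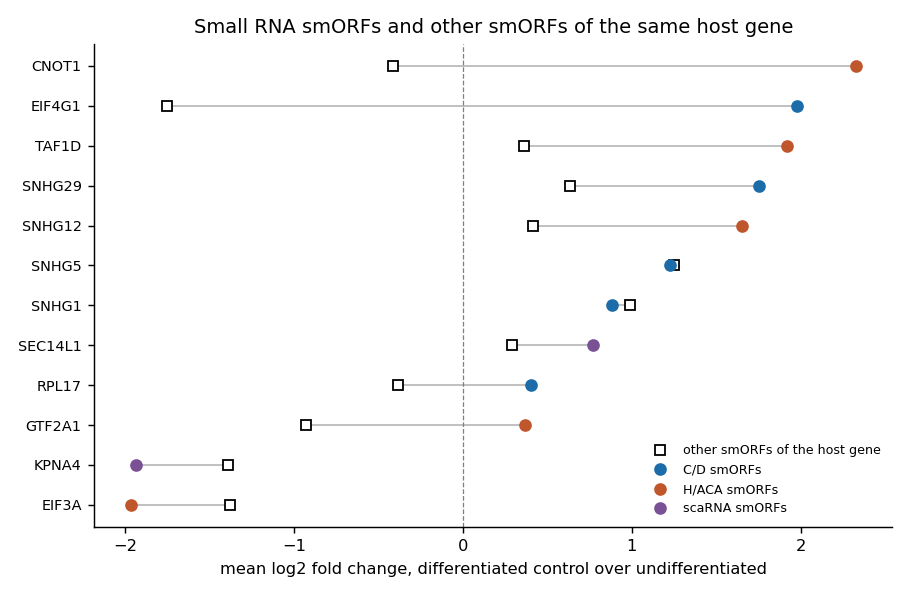
Mean log2 fold change, differentiated control over undifferentiated, of small RNA frames with exon overlap (circles, by class) and of the other smORFs of the same host gene (open squares), one line per gene. EIF4G1 shows the widest gap (1.98 against -1.75), and SNHG5 (1.22 against 1.25) almost none; RPL17-C18orf32 repeats RPL17 and is left out.

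Genes for the proteins that bind, assemble and trim these RNAs were read through their own smORFs, mostly upstream ORFs, so the values describe those frames and not the proteins. Of 62 tested smORFs in 28 of the 77 listed genes, none was called higher and 27 lower (43.5%, beside 15.6% of all smORFs), with a median log2 fold change of -1.26. The 27 came from 12 genes, with 8 frames of SNRPA, 6 of NOP58 and 4 of SNRPF, and frames of 1 gene can share reads. Small nuclear RNP proteins gave 16 of 32, and box C/D proteins and their assembly factors 6 of 14 (all of NOP58, a core protein of the box C/D particle). The list of capping, export and trimming gave 3 of 9, of which 1 was in CBX5, a heterochromatin protein not known for such a role. Cajal body and telomerase partners gave 2 of 5 and box H/ACA proteins 0 of 2. Those with the highest levels were SNRPF, a member of the Sm ring (IEC_01099, log2 fold change -1.84), STRAP, part of the SMN complex (IEC_00024, -1.98), XPO1, the nuclear exporter (IEC_18011, -1.34), and SNRPG, also of the Sm ring (IEC_14024, -1.55).

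The micelle comparisons asked whether micelles with or without lipid changed the frames in differentiated cells. Without a block on replicate number, the edgeR test called 0% of 15182 smORFs in each of the 3 comparisons, members included. At an unadjusted p under 0.05 stood 16 members when micelles without lipid were set against control, 25 when lipid micelles were, and 33 between both kinds of micelle. These were 6.61%, 10.3% and 13.6% of the tested members, beside 4.08%, 4.66% and 4.11% of all smORFs, and DESeq2 called 2, 0 and 0. Over all smORFs, libraries of equal number deviated together in the 3 differentiated groups, with correlations from 0.109 to 0.198, so the fit with the number as a block is given beside it. Over the 68 tested members with exon overlap these correlations were 0.424, 0.0559 and -0.0798, and the labels do not say what the number marks, so the calls below rest on that block. That fit called 7 members, all higher, for micelles without lipid against control, where the share over all smORFs was 0.104%. It called 1 member, higher, for lipid micelles against control (0.00696% of all) and 6 members, all lower, between lipid micelles and micelles without lipid (0.0975% of all).

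Every one of these calls fell on a member with exon overlap. The 3 comparisons share libraries, so the 7, 1 and 6 calls are not separate evidence. Among the 68 tested members with exon overlap, the median log2 fold change was 0.32 for the first comparison, with micelles without lipid, -0.29 for the second, with lipid micelles, and -0.67 between lipid micelles and those without, where 60 of 68 were below 0. Over all smORFs these medians were 0.01, 0.00 and -0.01.

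SNORA19, in an intron of the initiation factor gene EIF3A, came first by adjusted p. Its frame (IEC_17534) had 746 and 1272 counts in undifferentiated, 37 and 610 in control, 985 and 4999 in micelle without lipid and 216 and 1204 in lipid micelle libraries. Within replicate number 1 the level with micelles without lipid was 24.7 times the control, and within number 2 it was 8.71 times. With the block the log2 fold change was 3.69 ± 0.28 SE (edgeR adjusted p = 2.72e-06), against 3.31 ± 0.80 SE (edgeR adjusted p = 0.561) without it.

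SNORA12, in CWF19L1, followed the same order. Its frame (IEC_17557) had 587 and 474 counts in undifferentiated, 52 and 456 in control, 825 and 2798 in micelle without lipid and 270 and 1991 in lipid micelle libraries, 14.7 times the control within number 1 and 6.52 times within number 2 for micelles without lipid. With the block its log2 change was 3.26 ± 0.26 SE (edgeR adjusted p = 4.59e-06) for micelles without lipid and of 1.93 ± 0.25 SE (edgeR adjusted p = 0.00984) for lipid micelles, both against control. In each differentiated group replicate 2 was above replicate 1 for SNORA19, SNORA12 and SNORA14A, and the part of library number in these values was not tested beyond the block.

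SNORA14A (IEC_03504), in POR, had 57 and 107 counts in undifferentiated, 50 and 133 in control, 269 and 698 in micelle without lipid and 83 and 350 in lipid micelle libraries, and its block value for micelles without lipid was 2.41 ± 0.25 SE (edgeR adjusted p = 8.19e-05). SNORD50B (IEC_16539), in SNHG5, had 72 and 130 counts in undifferentiated, 149 and 389 in control, 731 and 1173 in micelle without lipid and 349 and 459 in lipid micelle libraries, with 1.90 ± 0.21 SE (edgeR adjusted p = 0.000189). For all 7 frames called in this comparison both libraries with micelles without lipid lay above both control libraries.

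The other 3 of the 7 were SNORA21, SCARNA4 and RNU1-34P. SNORA21 (IEC_16522) reached a mean of 169.9 ± 53.1 CPM (SD, n = 2) with micelles without lipid against 33.2 ± 2.71 CPM (SD, n = 2) in control (2.34 ± 0.32 SE (edgeR adjusted p = 0.00161)). SCARNA4 (IEC_23054) had 2.31 ± 0.37 SE (edgeR adjusted p = 0.00885), with 637 of its counts in replicate 2 and 88 in replicate 1. RNU1-34P (IEC_16534) had 1.88 ± 0.31 SE (edgeR adjusted p = 0.0103).

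With lipid micelles in place of micelles without lipid, 5 of these 7 frames and 1 over SNORD49B were lower in the fit with the block. SNORA19 had -2.40 ± 0.26 SE (edgeR adjusted p = 0.000565), SNORD50B -1.47 ± 0.21 SE (edgeR adjusted p = 0.0135) and SNORA14A -1.56 ± 0.23 SE (edgeR adjusted p = 0.0174). SNORD49B (IEC_03505) had -1.12 ± 0.19 SE (edgeR adjusted p = 0.0399), with 1313 and 1624 counts with micelles without lipid and 691 and 948 with lipid micelles. SNORA12 and SNORA21 were closest to the threshold, with -1.33 ± 0.24 SE (edgeR adjusted p = 0.047) and -1.62 ± 0.29 SE (edgeR adjusted p = 0.047). Lipid micelle libraries lay below both libraries with micelles without lipid for SNORA19, SNORD50B, SNORA14A, SNORD49B and SNORA21, and overlapped them for SNORA12. None of the 6 was called without the block, where each had an edgeR adjusted p of 0.999.

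**Figure D5:**
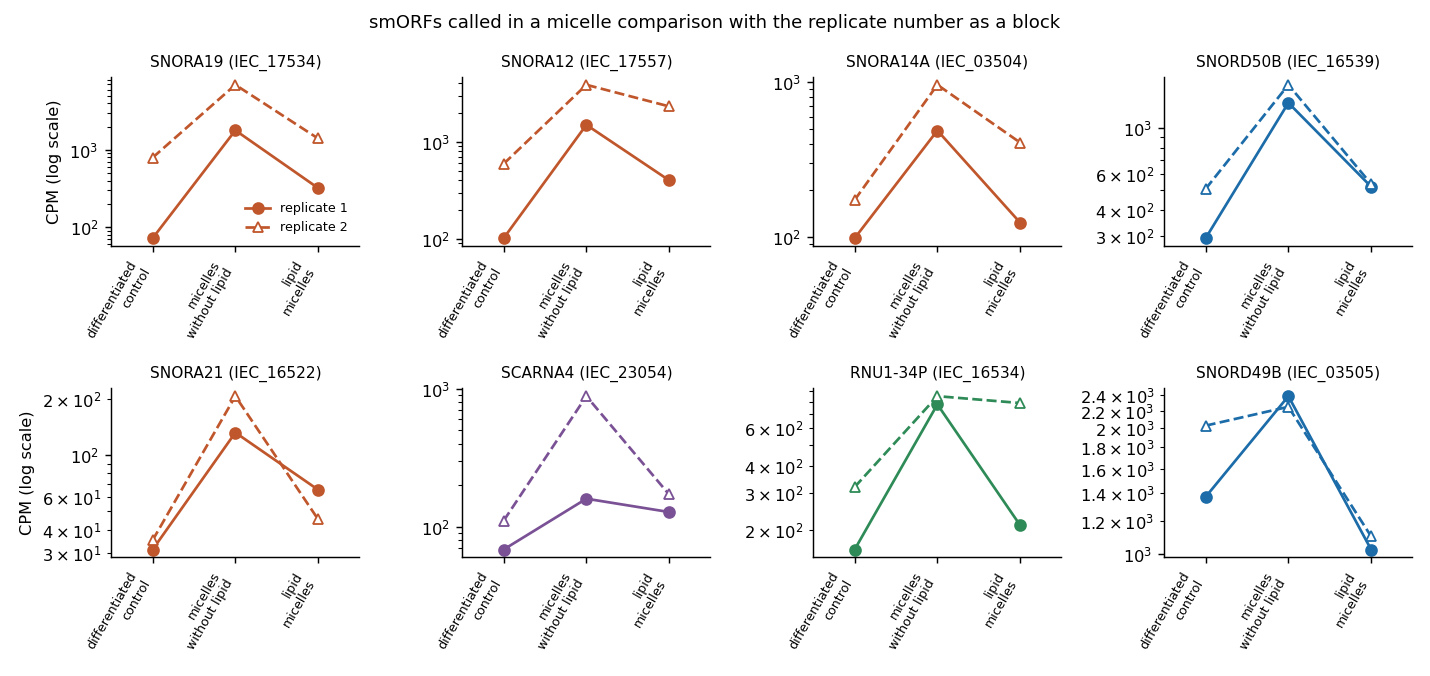
CPM on a log axis in the 6 differentiated libraries for the 8 frames called in a micelle comparison with the block, lines joining libraries of equal replicate number. Both lines peak with micelles without lipid in all 8 frames, and for SNORA19 replicate 2 runs above replicate 1 throughout.

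The other smORFs of the host genes were set beside these frames. For micelles without lipid against control, the other smORFs of the 13 host symbols had a median log2 fold change of -0.11, and the median difference, small RNA frames minus others, was 0.40. The difference was positive in 8 of the 13. In EIF3A the SNORA19 frame had 3.31 and the others -0.30, and in SNHG5 the SNORD50B frame had 1.88 and the others 0.19. Both frames are named because the block fit called them in this comparison. Among hosts that went the other way, SNHG1 had -0.05 for its C/D frames and 0.49 for 1 other, and RPL17 -0.36 and 0.05. All these host values are from the fit without the block, which called no smORF here.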

How the data were processed

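Per the labels and methods, the authors digested Caco-2 lysates with RNase I, purified monosomes, depleted rRNA, aligned reads to hg38 with STAR (2.7.11a in the submitters' processing notes, which also name HOMER), scored smORFs with RibORF and counted reads per smORF with HOMER. The deposited table holds these raw counts for 24199 smORFs in 8 libraries, and all per-library columns were used. The deposited annotation also holds RibORF and PhyloCSF scores made by the authors, used here only as medians and as the count of PhyloCSF means above 0. Other columns of the annotation were used only for coordinates, sequence and names.

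Counts were tested with edgeR 4.0.16 (quasi-likelihood, TMM scaling, filterByExpr, 15182 smORFs, all 8 libraries, one term per group) in R 4.3.3, and p-values were adjusted over all smORFs tested by the Benjamini-Hochberg method. DESeq2 1.42.0 was an alternative. Library sizes for CPM were summed over the smORFs that passed the filter and multiplied by the TMM factor. The steps were tested on simulated data. Totals ran from 506382 to 884711 counts, and a library's floor of 3 counts from 3.49 to 5.86 CPM, which covers counting error only. Positions and sequences came from hg38 and GENCODE 44 (289 of 293 deposited sequences were identical to hg38). Python 3.11.15, pandas 2.3.3 and pysam 0.24.0 were used.

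Replicate numbers come from the labels. Deviations from the group means correlated at 0.198, 0.119 and 0.109 between equal numbers of the differentiated groups and between -0.0653 and 0.0208 with undifferentiated libraries, so the planned fit with the block in the 6 differentiated libraries is given beside the micelle comparisons. Replicate 2 also had the larger total in each differentiated group, which cannot be told apart from the number.

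Named smORFs were, with 1 per small RNA (that with the most counts), the 8 largest called changes per class and direction, at most 15 members per micelle comparison called with or without the block in order of adjusted p, the 3 highest mean CPM per class, the other smORFs of their hosts, and up to 4 called genes per direction of the small RNA protein list. The members and lists were chosen with earlier results of these data known. Alternatives were other scaling, filters, tool, member sets, left-out libraries and the block. Some items, among them sequences and 1 frame with its host, are not reported here.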

Additional observations from a re-analysis of the deposited data

How the results depend on the processing

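For differentiated control against undifferentiated cells, 105 members were called, and 87 to 123 under other scaling, no filter, DESeq2, single libraries left out, the replicate block (108) or the 4 libraries alone. Requiring 10 counts in every library gave 68 (48 higher and 20 lower, against 60 and 45), members wholly inside a small RNA exon 30, 1 smORF per small RNA gene 48 and, an alternative chosen after seeing the data, members with any exon overlap 43, fewer because fewer smORFs were counted. For micelles without lipid against control the 0 calls became 8 with no filter, 2 with DESeq2, 7 with the replicate block, and 0 to 6 without 1 library: 4 without the second control library, 6 without the first library with micelles without lipid, and 2 without either undifferentiated library. For lipid micelles against control they became 1 with no filter and 1 with the replicate block. For lipid micelles against micelles without lipid they became 7 with no filter, 6 with the replicate block and 0 to 1 without 1 library, the 1 without the first library with micelles without lipid. The cause of these changes was not tested.

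The ratio of the class share, control over undifferentiated, was 1.96 for C/D, 0.786 for H/ACA, 0.389 for scaRNA and 0.259 for snRNA. With members wholly inside an exon it was 3.05 for C/D and 0.188 for snRNA, and with any exon overlap 2.89 for C/D. Without the member with the most counts it was 0.187 for snRNA and 1.06 for scaRNA, whose direction thus rested on SCARNA4. Leaving out single libraries gave 0.271 to 0.687 for scaRNA, where the second undifferentiated library held 495 SCARNA4 counts and the first 179, and 0.214 to 0.329 for snRNA. The median host difference with exon overlap ran from 0.79 to 0.80 with summed counts, annotated hosts and other scaling. For control against undifferentiated the replicate block changed the calls of 3 members, SNORA19, SNORA12 and SNORA80E, which takes the lower H/ACA calls with exon overlap from 1 to 3, and no other call of a member. With 2 libraries a group and members at a few counts per library, smaller changes were not detectable at this depth.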

Other observations

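A further 13 smORFs overlapped annotated small RNAs on the same strand without a symbol that the rule takes, 10 of them over U1 variant genes (RNVU1), and 7 of the 11 tested were called lower in the differentiated control than in undifferentiated cells (63.6%, beside 15.6% of all smORFs) with none higher. Of the 8 tested over RNVU1 genes 4 were called, and the other 3 calls were 2 frames over U3 and 1 over RN7SK. The one over RNVU1-22 (IEC_03500) had 7489 and 9662 counts in undifferentiated, 2453 and 5723 in control, 4826 and 7035 in micelle without lipid and 4512 and 9779 in lipid micelle libraries, more than any U1 frame among the members. A frame over a U3 copy in TEX14 (IEC_17555) had 68 and 74 counts in undifferentiated and 10 and 17 in control libraries, with no overlap. None of the 13 was called in a micelle comparison with the block, and without it no smORF of any kind was called.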
